A study of Mus musculus with 15 samples.

Results

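The accessible regions described here are 7382 ATAC-seq peaks of mouse pancreatic islets, at 6395 named genes, for which the difference between Arid1a KO-labelled and control islets could be set side by side after and before partial pancreatectomy (PPx). They are the peaks that overlapped by more than 50% of their common length between the authors' deposited genotype table after PPx, which lists 13111 different peaks, and the one before PPx, which lists 7826. Each peak was used once, with the best overlap first, so 5729 peaks after PPx and 444 before it stayed without a partner. Of the 7382 matched peaks, 7374 entered the test of the difference.

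ATAC-seq marks open chromatin by where the Tn5 transposase can insert adapters, and each library came from 40000 islet cells. The 15 libraries fall into 4 groups of male mice aged 3 months. Islets with the label Arid1a βKO, genotype Arid1aFl/Fl; MIP-rtTA; TRE-Cre, gave 4 libraries after PPx, and islets of Arid1aFl/Fl; MIP-rtTA controls also gave 4. Before PPx there were 3 libraries from Arid1a βKO islets and 4 from control islets. All groups carry the floxed Arid1a allele and the MIP-rtTA transgene, in which an insulin promoter drives the doxycycline-dependent activator in beta cells, and all mice drank doxycycline at 1 g/L for 2 weeks. Only the mice that also carry TRE-Cre can recombine the allele, in beta cells, while whole islets were sequenced. PPx was performed 1 week after doxycycline was withdrawn and islets were taken 6 days later. The tables hold 1 mean per group and peak and no value per library, so the spread between animals enters only through the authors' p-values, and fewer open cells cannot be told apart from a lower signal per cell.

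Arid1a encodes the large DNA-binding subunit of the canonical BAF (SWI/SNF) remodeller, which slides and evicts nucleosomes at enhancers and promoters. Beta cells of adult mice divide rarely, and removing part of the pancreas is a classical way to make the remaining ones proliferate. The comparison made here asks at which regions the genotype effect depends on the operation. For each peak it takes KO-labelled minus control after PPx and subtracts KO-labelled minus control before PPx. Each effect is a difference of log2 normalised read means and was first centred on the median of its own table, 0.61 after PPx and -0.01 before it. A positive difference means that the KO-labelled islets stood higher against their controls after PPx than before it.

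The sequences upstream of some promoters at the ends of the ranking are shown here because these are the regions that later values turn on. Each line holds the 150 bases before a RefSeq transcription start site that lies inside the peak (GRCm38.p6, the assembly that mm10 follows), read 5′ to 3′ on the gene's strand. Capitals mark the CCAAT box in either orientation, CCAAT or ATTGG. The first 3 belong to genes at the high end of the ranking by difference over standard error, the next 2 to genes at its low end, and the last to Pgk1, which could not be tested.
Psmd1: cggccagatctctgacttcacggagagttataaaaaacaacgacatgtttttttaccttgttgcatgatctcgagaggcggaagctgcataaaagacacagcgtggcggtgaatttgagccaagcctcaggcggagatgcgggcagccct
Pttg1: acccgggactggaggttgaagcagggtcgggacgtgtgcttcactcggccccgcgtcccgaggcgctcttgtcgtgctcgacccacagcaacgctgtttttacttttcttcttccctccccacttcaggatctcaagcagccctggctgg
Dgcr8: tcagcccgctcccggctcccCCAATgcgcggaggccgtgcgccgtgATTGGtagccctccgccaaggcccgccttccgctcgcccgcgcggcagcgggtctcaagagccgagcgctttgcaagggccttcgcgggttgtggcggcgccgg
Bub3: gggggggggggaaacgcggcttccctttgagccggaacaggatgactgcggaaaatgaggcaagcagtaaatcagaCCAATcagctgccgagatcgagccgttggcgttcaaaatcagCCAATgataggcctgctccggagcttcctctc
Sun1: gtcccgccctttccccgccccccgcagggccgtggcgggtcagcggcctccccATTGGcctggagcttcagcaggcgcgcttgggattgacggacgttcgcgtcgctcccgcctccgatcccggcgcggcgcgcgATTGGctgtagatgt
Pgk1: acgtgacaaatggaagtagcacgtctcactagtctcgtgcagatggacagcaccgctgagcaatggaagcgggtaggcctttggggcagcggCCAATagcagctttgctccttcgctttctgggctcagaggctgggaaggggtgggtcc
The windows lie at chr1:86064469-86064618 on the plus strand for Psmd1, chr11:43425982-43426131 on the minus strand for Pttg1, chr16:18289169-18289318 on the minus strand for Dgcr8, chr7:131560220-131560369 on the plus strand for Bub3, chr5:139200487-139200636 on the plus strand for Sun1 and chrX:106186950-106187099 on the plus strand for Pgk1. They differ widely in composition. G and C made up 50.7% of the Psmd1 window, 61.3% of the Pttg1 window and 74.7% of the Dgcr8 window, against 57.3% for Bub3, 72.7% for Sun1 and 58.7% for Pgk1. The CCAAT letters are present in Dgcr8, in both promoters from the low end and in Pgk1, and absent from the Psmd1 and Pttg1 windows. Of the high-end windows not printed here, that of Morn2 holds them and that of Cdc37l1 does not.

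The KO-labelled islets after PPx stood apart from the other 3 groups at most of the matched peaks. On 1 common scale the median peak lay at 4.65 in KO-labelled islets after PPx (quartiles 4.13 and 5.28) and at 4.02 in control islets after PPx (3.59 and 4.58), in log2 normalised reads. It lay at 3.81 in KO-labelled islets before PPx (3.33 and 4.44) and at 3.87 in control islets before PPx (3.46 and 4.39). The tables after and before PPx were normalised separately. They were joined here by a constant of -0.23 added to the table before PPx, and this constant came out the same through the authors' tables of PPx in KO-labelled and in control islets.

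**Figure D1:**
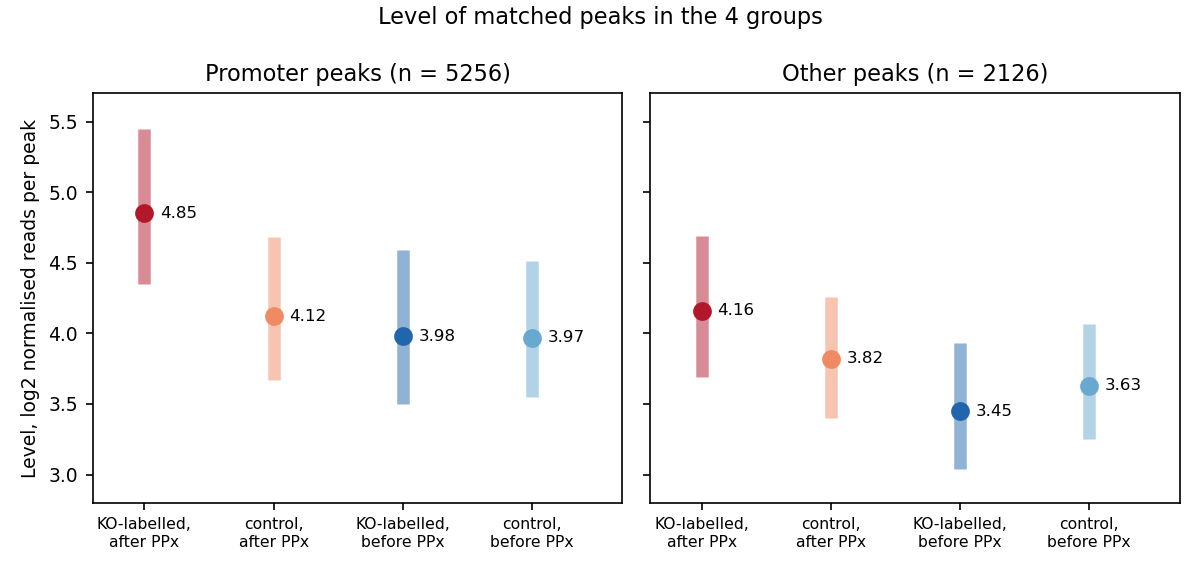
Median (point) and quartiles (bar) of the level of promoter peaks (left) and other peaks (right) in the 4 groups, in log2 normalised reads per peak on 1 common scale. The KO-labelled islets after PPx have the highest median in both classes, 4.85 at promoters and 4.16 elsewhere, and the KO-labelled islets before PPx have the lowest median at other peaks, 3.45.

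The plot of levels by class separates promoters, here peaks within 3 kb of an annotated start site, from all other peaks. At 5256 promoter peaks the medians were 4.85 in KO-labelled islets after PPx, 4.12 in control islets after PPx, 3.98 in KO-labelled islets before PPx and 3.97 in control islets before PPx. At the 2126 other peaks they were 4.16 in KO-labelled islets after PPx, 3.82 in control islets after PPx, 3.45 in KO-labelled islets before PPx and 3.63 in control islets before PPx. Before PPx the KO-labelled islets thus lay level with control islets at promoters and below them elsewhere.

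In deposited terms, KO-labelled minus control had a median of 0.67 after PPx over the matched peaks (quartiles 0.42 and 0.86), with 93.3% of peaks above 0. Before PPx the median was 0.00 (quartiles -0.27 and 0.24), with 49.2% above 0. The median gap between the effects was therefore 0.64 as deposited, with 92.5% of peaks above 0, and 0.02 after centring (quartiles -0.27 and 0.31), with 52.2% above 0. A shift shared by all peaks can come from chromatin or from the scaling of libraries, and these cannot be told apart here, so differences of effects are given relative to it. Seen from the operation, the authors' tables gave an after minus before median of 0.80 in KO-labelled islets (7312 peaks, 97.6% above 0) and of 0.15 in control islets (6740 peaks, 72.2% above 0). These come from the same libraries.

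The number of libraries that called each peak is a readout that centring does not touch, although it depends on depth, which the tables do not give. On average a matched peak was called in 85.4% of the KO-labelled libraries and 60.7% of the control libraries after PPx. Before PPx it was called in 72.1% of the KO-labelled and 62.9% of the control libraries. All 4 KO-labelled libraries after PPx called 4577 peaks (62.0%), against 2397 (32.5%) for all 4 control libraries after PPx. All 3 KO-labelled libraries before PPx called 3570 (48.4%), against 2357 (31.9%) for all 4 control libraries before PPx. No library called 24 of the peaks among KO-labelled islets after PPx, 699 among control islets after PPx, 402 among KO-labelled islets before PPx and 334 among control islets before PPx. Calls in all or in none of 3 libraries are easier to reach than in all or none of 4. The counts of KO-labelled islets before PPx are thus not like for like with the others.

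Peak by peak, the difference was tested from the deposited values. The standard error of each effect was taken from its size and the authors' p-value, and the errors of the 2 effects, which share no library, were added in quadrature. An exact test over libraries cannot be made from group means. No peak passed an adjusted p of 0.05 (two-sided z test, Benjamini-Hochberg over 7374 peaks, 0% called). The lowest adjusted p was 0.467. At an unadjusted p under 0.05 there were 56 peaks with a higher genotype effect after PPx (0.759%) and 62 with a lower one (0.841%). Together these are 1.6% of the peaks, under the 5% that this level gives with no difference anywhere, and the SD of z was 0.77, under 1. The standard errors are thus wide for the scatter of the differences, which makes the test conservative. With a median standard error of 0.56, the 95% interval of a peak reached 1.10 to either side. A difference under about that size could thus not be told from 0 at 1 peak, even before adjustment. With adjustment the limit lay higher, since 2.12 at the Psmd1 promoter and -2.99 at the distal Gm23255 peak did not pass. By the authors' own FDR, 1169 of the matched peaks passed after PPx (15.8%; 1161 gained and 8 lost in KO-labelled islets) and 1 before PPx (0.0135%), the Arid1a peak. Those 1169 peaks had a median centred difference of 0.31, which is above 0 because they were chosen by the effect after PPx. Passing in 1 state and not in the other is not a difference between the states, and none of them passed the test of the difference.

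**Figure D2:**
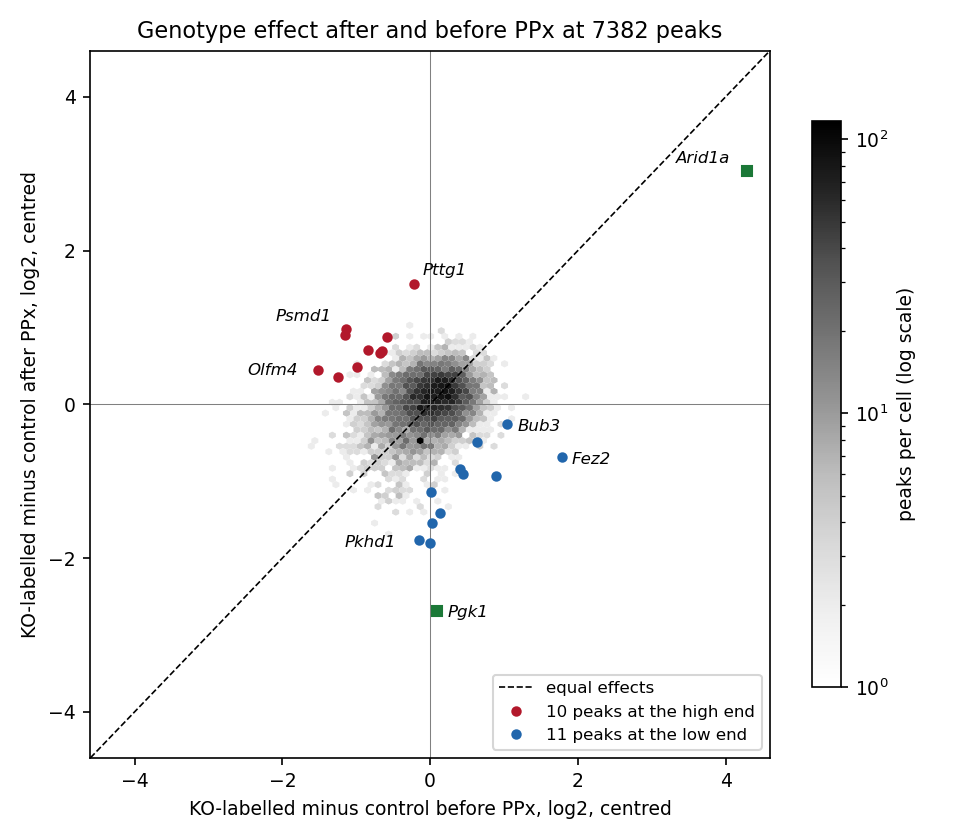
Centred genotype effect after PPx (y axis) against that before PPx (x axis) at the 7382 matched peaks, both in log2, with darker cells holding more peaks on a log scale. Red and blue points are 10 peaks at the high end and 11 at the low end by difference over its standard error, green squares are Arid1a and Pgk1, and the dashed line marks equal effects. The mass of peaks is centred near 0 on both axes, while Arid1a stands at 3.03 after PPx and 4.29 before it, below the line.

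The 2 effects were weakly related across peaks, as the plot of the effects shows. Pearson's r was 0.30 over all 7382 peaks, 0.16 over promoter peaks and 0.34 over other peaks, and it was 0.23 after removing the trend with level and class. Peaks of 1 genome and shared libraries are not independent, so r only describes the cloud. After centring, 2456 peaks (33.3%) were higher in KO-labelled islets in both states and 1932 (26.2%) lower in both. A further 1628 (22.1%) were higher after PPx and lower before it, and 1200 (16.3%) lower after PPx and higher before it. The largest block of points at 1 place in the plot is 92 peaks that carried the same 4 means, -0.13 in KO-labelled and -0.26 in control islets after PPx, and -0.24 in KO-labelled and -0.12 in control islets before PPx. No other set of 4 means occurred more than 2 times. Of the 92, 58 lie on chromosome Y, which holds 72 matched peaks, and 79 carry predicted or microRNA gene names. Their difference is -0.37 with a standard error of 2.10.

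Arid1a checks the labels. The authors' means at its single matched peak, in exon 9 of 20 (chr4:133692980-133693580, mm10), were 4.04 in KO-labelled islets and 0.40 in control islets after PPx, and 5.49 in KO-labelled islets and 1.21 in control islets before PPx. All 3 KO-labelled libraries before PPx and 3 of 4 after it called the peak, and no control library did. The signal was thus higher under the KO label in both states, by 3.64 after PPx and 4.28 before it. Which exon is floxed is not said in the labels, so the peak does not measure how complete the deletion was, and the groups are called KO-labelled for this reason. The effects differed by -1.26 (standard error 1.08, 95% interval -3.37 to 0.85, unadjusted p = 0.242 by the z test built on the authors' p-values), which does not show that they are equal. This p rests on how the standard error was built from the authors' p-values. With t quantiles the standard error was 0.17 and the p 1.43e-05 (adjusted p of 0.105), and with that of peaks of like concentration they were 0.63 and 0.0446 (adjusted p of 1.0).

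At the high end of the ranking, the genotype effect was positive after PPx and negative before it. The 10 peaks described at this end by difference over standard error, 1 per gene, all showed this, with effects of 0.97 to 2.18 after PPx and -1.53 to -0.23 before it. By the same deposited effects, 3282 of the 7382 matched peaks (44.5%) showed it. In the authors' tables of the operation all 10 were higher after PPx in KO-labelled islets, by 0.91 to 2.35, and lower after PPx in control islets, by -1.50 to -0.06. Since the ranking uses all 4 groups, a peak reaches its end most easily when both effects pull apart, so the pattern is a description. None passed the adjusted test.

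Psmd1 encodes a non-ATPase subunit in the base of the proteasome's regulatory particle. At its promoter (chr1:86064228-86064828) the authors' means were 4.68 in KO-labelled and 3.09 in control islets after PPx, and 2.93 in KO-labelled and 4.08 in control islets before PPx. All 4 KO-labelled and none of the 4 control libraries called it after PPx, and none of 3 KO-labelled and 2 of 4 control libraries before PPx. The order of the genotypes was therefore opposite in the 2 states, by means and by calls. The difference was 2.12 (standard error 0.63, 95% interval 0.89 to 3.35).

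Pttg1 encodes securin, which holds separase inactive until sister chromatids part at anaphase. Its promoter (chr11:43425976-43426576) had means of 4.38 in KO-labelled and 2.20 in control islets after PPx, and 3.70 in KO-labelled and 3.93 in control islets before PPx. It was called in 4 of 4 KO-labelled and 0 of 4 control libraries after PPx, and in 3 of 3 KO-labelled and 3 of 4 control libraries before PPx. Here the control islets after PPx are the group that stood apart, at the lowest level of the 4. The difference was 1.79 (standard error 0.64, 95% interval 0.54 to 3.04). Its genotype effect after PPx alone passed in the authors' deposited table, at an FDR of 0.00701.

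Dgcr8, the RNA-binding partner of Drosha in microRNA processing, had promoter means of 4.77 in KO-labelled and 3.46 in control islets after PPx, and 3.16 in KO-labelled and 4.01 in control islets before PPx, a difference of 1.54 (standard error 0.61). Cdc37l1, a relative of the kinase co-chaperone Cdc37, had 3.64 in KO-labelled and 2.13 in control islets after PPx, and 2.46 in KO-labelled and 3.62 in control islets before PPx, a difference of 2.05 (0.79). At Ninl, which encodes a centrosomal protein, the promoter means were 5.15 in KO-labelled and 3.85 in control islets after PPx, and 3.76 in KO-labelled and 4.42 in control islets before PPx. The difference there was 1.34 (0.52). Agtpbp1, which shortens polyglutamate side chains of tubulin, and Morn2 had promoter differences of 1.35 (0.53) and 1.48 (0.56). Each of these promoters was lower in KO-labelled than in control islets before PPx and higher after it.

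Outside promoters, the same rule named Olfm4, an olfactomedin-family protein known as an intestinal stem cell marker, at intron 2 of 6. Its means were 4.20 in KO-labelled and 3.15 in control islets after PPx, and 2.07 in KO-labelled and 3.60 in control islets before PPx. All 4 KO-labelled and no control libraries called it after PPx, and 0 of 3 KO-labelled and 2 of 4 control libraries before it. Differences of 1.45 (standard error 0.56) and 1.61 (standard error 0.59) stood at distal peaks assigned to Gch1, which makes the first intermediate of tetrahydrobiopterin, and to the splicing regulator Mbnl1. For these distal peaks the gene is the nearest in the annotation, and a link to it was not measured.

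At the low end, 9 of the 11 peaks described were lower in KO-labelled than in control islets after PPx and 8 were higher before it. Their effects ran between -1.19 and 0.35 after PPx and between -0.16 and 1.77 before it. Of the 10 listed in the authors' table of PPx in control islets, all 10 were higher after PPx there, by 0.36 to 0.85, while the KO-labelled islets ranged between -0.66 and 0.15. Promoters made up 3 of these 11 peaks, and 7 of the 10 at the high end. Among the first 24 peaks of each end before predicted and microRNA genes were set aside, 12 at the low end and 1 at the high end carried such names.

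Fez2, a homologue of a Caenorhabditis elegans axon fasciculation protein, had the lowest difference among the 11, at exon 5 of 8 (chr17:78400412-78401012). Its means were 3.41 in KO-labelled and 3.49 in control islets after PPx, and 3.82 in KO-labelled and 2.05 in control islets before PPx. All 3 KO-labelled and none of the 4 control libraries called it before PPx, against 1 of 4 in each genotype after PPx. In deposited means the genotype gap was thus present before PPx and not visible after it. The effect after PPx, -0.08, lay below the table median of 0.61. The centred difference was -2.47 (standard error 0.76, 95% interval -3.96 to -0.98).

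Bub3, a mitotic checkpoint protein that keeps anaphase from starting early, lies at the opposite end from Pttg1. Its promoter (chr7:131559940-131560540) had means of 4.11 in KO-labelled and 3.76 in control islets after PPx, and 4.43 in KO-labelled and 3.40 in control islets before PPx, a difference of -1.30 (standard error 0.56). Sun1, which links the nuclear lamina to the cytoskeleton, had promoter means of 3.89 in KO-labelled and 4.19 in control islets after PPx, and 4.00 in KO-labelled and 3.57 in control islets before PPx, a difference of -1.35 (0.60). At the promoter of Litaf, a late endosomal membrane protein, the means were 4.76 in KO-labelled and 5.29 in control islets after PPx, and 5.00 in both genotypes before PPx, a difference of -1.15 (0.47).

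A distal peak assigned to Ndufb3, an accessory subunit of respiratory complex I, had means of 2.80 in KO-labelled and 3.99 in control islets after PPx, and 3.69 in KO-labelled and 3.70 in control islets before PPx. It was called in 0 of 4 KO-labelled and 4 of 4 control libraries after PPx, and in 2 of 3 KO-labelled and 3 of 4 control libraries before it. Exon 61 of 67 of Pkhd1, which encodes the ciliary protein fibrocystin, had means of 3.63 in KO-labelled and 4.79 in control islets after PPx, and 4.17 in KO-labelled and 4.33 in control islets before PPx. At both peaks the genotypes were close before PPx and the KO-labelled islets lower after it, with differences of -1.80 (0.64) and -1.62 (0.53). The remaining low peaks, at Ccdc178, Cntn5, Mdfic, Tafa2 and Defb1, had differences of -1.82 to -1.12.

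**Figure D3:**
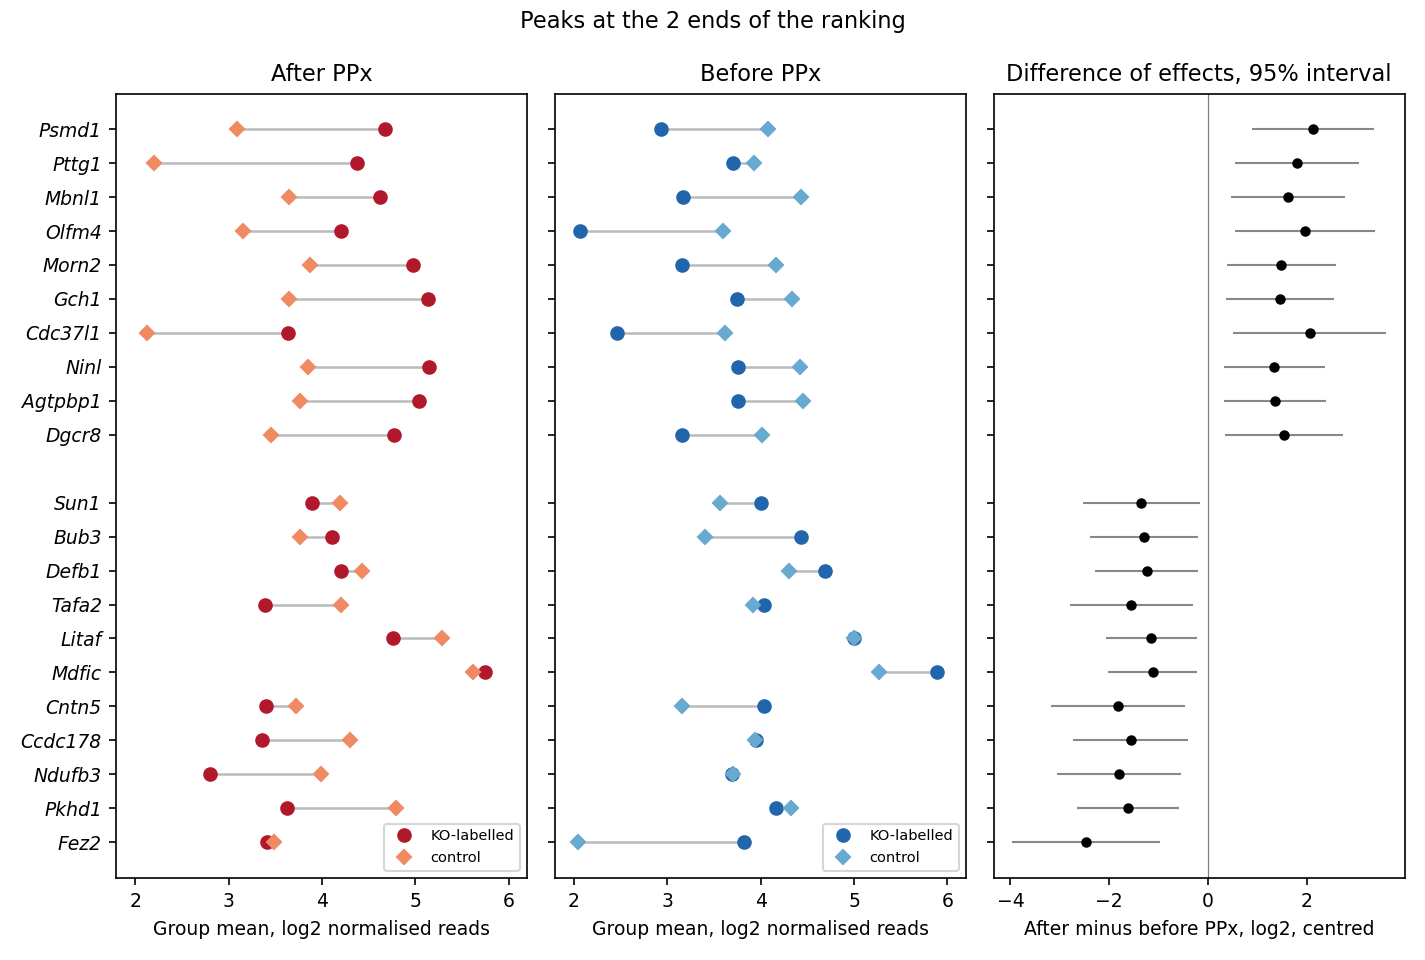
Authors' group means after PPx (left panel) and before PPx (middle panel) and the centred difference of effects with its 95% interval (right panel) at 10 peaks of the high end (top) and 11 of the low end (bottom) by difference over standard error. Circles are KO-labelled and diamonds control islets, in log2 normalised reads of each table. At the top the circles lie right of the diamonds after PPx and left of them before PPx, for all 10 genes.

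In the plot of the named peaks, the top genes share a crossing of the genotypes, and the bottom genes are of several kinds. The crossing is not particular to the top genes, since 44.5% of all matched peaks had it in deposited terms. In deposited means, the KO-labelled islets at Fez2, Bub3 and Mdfic were higher before PPx and the groups closer after it. The effects of these peaks after PPx, -0.08, 0.35 and 0.12, lay below the table median of 0.61. Relative to that shared shift the KO-labelled islets were thus the lower group there after PPx. At Pkhd1, Ndufb3, Ccdc178, Litaf and Tafa2 the groups were close before PPx and the KO-labelled islets lower after it.

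Among the peaks outside the naming rule, 2 were singled out after their values were seen. Gm23255, a predicted gene with a distal peak (chr8:73618833-73619433), had the lowest adjusted p, 0.467. Its means were 1.93 in KO-labelled and 3.89 in control islets after PPx, and 4.00 in KO-labelled and 3.59 in control islets before PPx, a difference of -2.99 (standard error 0.75). Pgk1, which encodes the glycolytic enzyme phosphoglycerate kinase, had promoter means (chrX:106186575-106187175) of 6.68 in KO-labelled and 8.76 in control islets after PPx, and 5.09 in KO-labelled and 5.01 in control islets before PPx. Its difference was -2.78. Both genotypes stood above their level before PPx, by 1.83 in KO-labelled and 3.97 in control islets in the authors' deposited tables of the operation. The deposited p of its effect after PPx is exactly 1 at an effect of -2.08, and it is also 1 for the 3.97 in control islets. No standard error follows from such a p. Whether all 4 control libraries after PPx or fewer carried the signal was not tested, although all 4 called the peak.

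The difference was then read by annotation class. The median centred difference was 0.06 at the 5102 promoter peaks within 1 kb of a start site and -0.17 at 1305 distal intergenic peaks. It was 0.00 at 672 intron peaks, -0.08 at 90 exon peaks and -0.17 at 28 peaks in 3′ UTRs. The outer promoter peaks went both ways, with -0.15 at 85 peaks 1 to 2 kb from the start and 0.11 at 69 peaks 2 to 3 kb from it. Promoter minus all other peaks came to 0.17, from gaps of 0.35 after PPx and 0.16 before it, so the genotype effect was higher at promoters than at other peaks in both states, with the wider gap after PPx. Before PPx the median effect was 0.04 at promoters and -0.12 at other peaks.

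**Figure D4:**
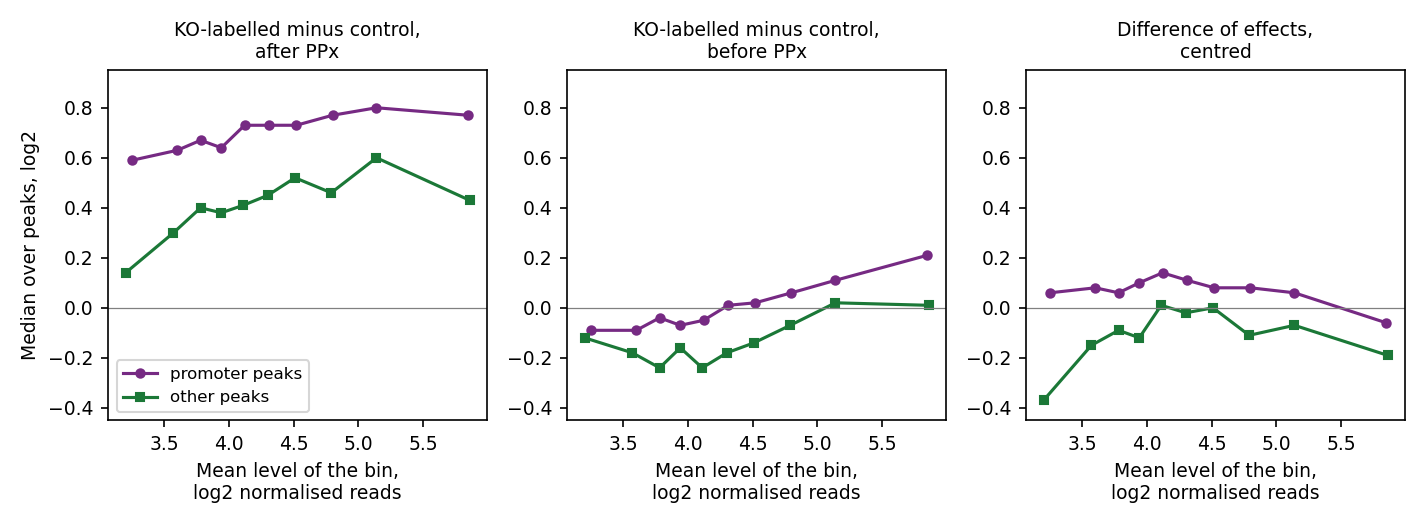
Median genotype effect after PPx (left panel), before PPx (middle panel) and their centred difference (right panel), in log2, over 10 bins of peaks by mean level (x axis, log2 normalised reads), for promoter peaks (circles) and other peaks (squares). Promoter medians lie above the others in all 10 bins of the difference, between -0.06 and 0.14 against -0.37 and 0.01. The -0.37 belongs to the lowest bin of other peaks, where 67 of 424 peaks carry 1 identical set of means.

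The plot of medians by level shows the same gap among peaks of like level. Within 10 bins of equal size by mean level the gap came to 0.18, and promoters were above the others in 10 of 10 bins. At promoters the median effect after PPx was 0.59 in the lowest bin and 0.77 in the highest, and before PPx -0.09 and 0.21. At other peaks it was 0.14 and 0.43 after PPx, and -0.12 and 0.01 before PPx. The lowest bin of other peaks, 424 in all, includes 67 of the 92 peaks with 1 set of means. Those have effects of 0.13 after PPx and -0.12 before it and a difference of -0.37, close to the medians of that bin. The promoter medians lay above the others on 21 of 21 chromosomes, by 0.01 on chromosome 15 up to 0.36 on chromosome 14, with 0.86 on chromosome Y, where 58 of 72 peaks are among the 92 with 1 set of means. Without chromosome Y the gap was 0.15, and without those 92 peaks it was also 0.15. By chromosome, the median difference was lowest on Y, at -0.37, and highest on chromosome 11, at 0.14 over 235 peaks. The gap of 0.17 is small against the SD of single peaks, 0.48, and no test was made of it, since peaks are not replicates.

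The 739 highest differences held 73.1% promoter peaks and 14.5% predicted or microRNA genes, and the 738 lowest held 42.4% promoter peaks and 30.8% such genes. Over the 5905 peaks between them promoters made up 74.6%. The highest peaks combined a median effect of 0.92 after PPx with -0.53 before it, and the lowest combined 0.19 after PPx with 0.36 before it, which the ranking itself brings about.

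Promoter sequence was set against the values at 3814 peaks that cover a RefSeq start site, 3701 of them promoter peaks, in windows of 250 bases before to 50 after the start. From the lowest to the highest of 5 equal classes by G and C content (median 50.7% to 72.3%), the median effect after PPx was 0.71, 0.72, 0.74, 0.73 and 0.81, and before PPx 0.02, 0.02, 0.02, 0.04 and 0.11. The difference stayed between 0.05 and 0.09. By CG dinucleotides (median 10 to 36 per window), the lowest and highest classes had median effects of 0.68 and 0.80 after PPx and of 0.03 and 0.08 before it, and the difference stayed between 0.03 and 0.09.

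Short motifs were searched by their letters on both strands in the same windows. The CCAAT box (CCAAT) stood in 48.0% of these promoters and in 37.4% of all 32851 RefSeq promoters of that length. ETS letters (CCGGAAG) stood in 20.1% against 8.86%, E-box letters (CACGTG) in 10.4% against 7.15%, NRF1 letters (GCATGCGC) in 5.98% against 2.71% and E2F letters (TTCCCGCC) in 5.24% against 2.19%. The CRE (TGACGTCA) stood in 4.17% against 1.79%, RFX letters (GTTGCCA) in 4.14% against 4.38% and AP-1 letters (TGANTCA) in 3.78% against 7.81%. No word contains another. For each motif the median difference of promoters with it was within 0.06 of those without it. The widest gaps were at NRF1, 0.02 with against 0.08 without, and at AP-1, 0.12 with against 0.07 without.

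Gene lists that fit islets and regeneration were read in the same way. They hold 448 genes in 26 lists, of which 162 genes with 197 peaks were matched, in 21 lists. No list peak passed the adjusted test (0% background). At an unadjusted p under 0.05, 2 of the 197 were higher after PPx, Pttg1 and Psmd1, and 1 was lower, the distal Ndufb3 peak, against 0.759% and 0.841% of all peaks. Their median difference was 0.05, against 0.02 over all matched peaks.

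**Figure D5:**
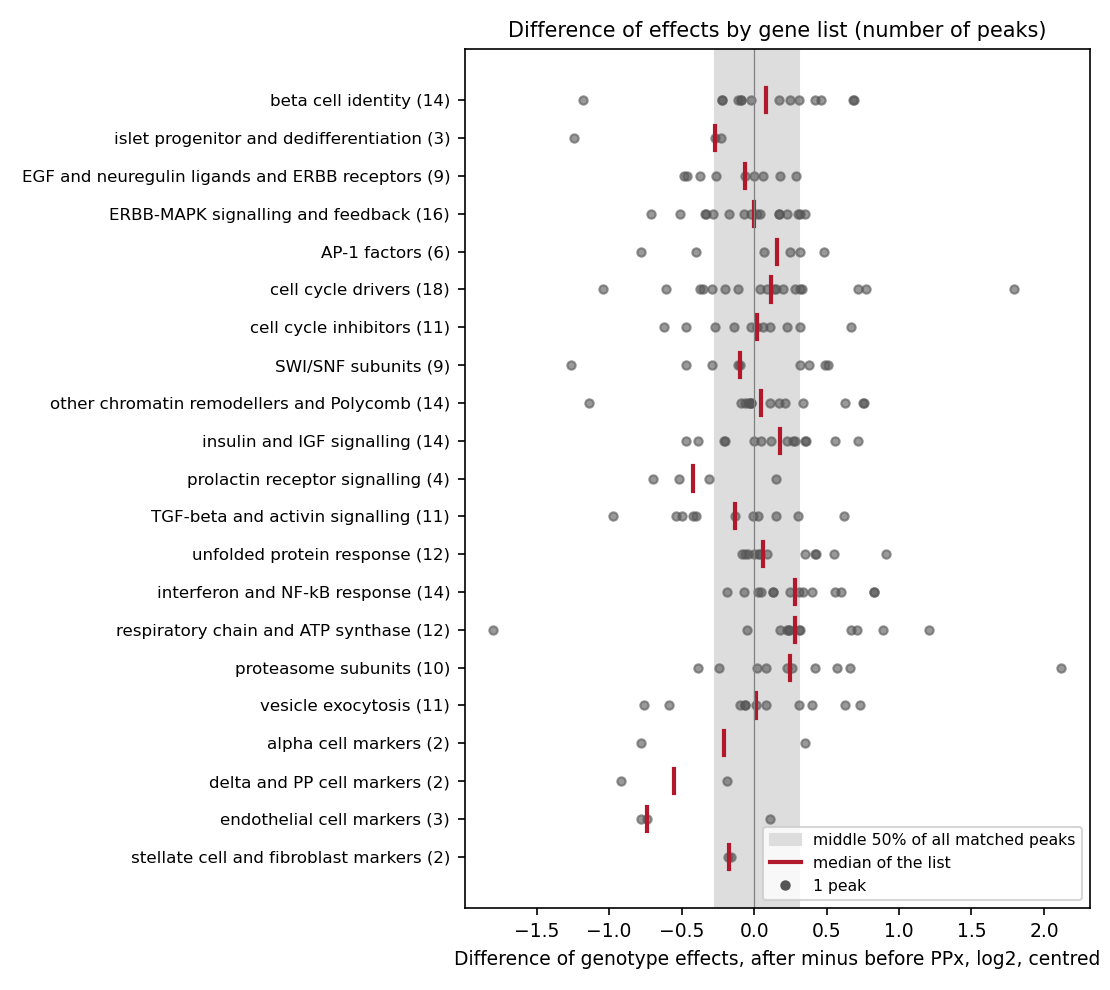
Centred difference of genotype effects, after minus before PPx, in log2 (x axis), for each matched peak (point) of 21 gene lists, with the list median (red bar) and the number of peaks in brackets. The grey band, -0.27 to 0.31, holds the middle of all matched peaks. The list medians lie between -0.74 and 0.28, and those outside the band belong to lists of 2 to 4 peaks.

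In the plot of the gene lists, the points of most lists straddle 0. The side of 0 depends on the centring, since without it 20 of 21 list medians were above 0. Beta cell identity genes had 14 peaks at 12 of 30 genes, with 7 above and 7 below 0 and a median of 0.08. Nkx6-1, a transcription factor that keeps beta cells mature, was highest at its promoter, with 4.87 in KO-labelled and 3.81 in control islets after PPx, and 4.04 in KO-labelled and 4.29 in control islets before PPx (difference 0.69, 95% interval -0.37 to 1.75). A distal peak assigned to Isl1, a LIM homeodomain factor of islet cells, was lowest, with 3.60 in KO-labelled and 3.04 in control islets after PPx, and 3.81 in KO-labelled and 2.69 in control islets before PPx (difference -1.18, 95% interval -2.48 to 0.12). The most open peak of the list, the promoter of the islet factor Pax6, had a difference of -0.22 (0.46). The promoter of Ins1, an insulin gene named here after its values were seen, was higher in KO-labelled islets in both states, 5.62 in KO-labelled and 4.13 in control islets after PPx and 5.08 in KO-labelled and 4.12 in control islets before PPx, with a difference of -0.09 (95% interval -1.20 to 1.02). A further 4 genes of the list, Mafa, Nkx2-2, Pcsk2 and Ucn3, had peaks only in the table after PPx. That table is the longer one, and 5729 of all its 13111 peaks had no partner, against 444 of 7826 before PPx.

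Cell cycle drivers had 18 peaks at 15 of 34 genes, 11 above and 7 below 0, with a median of 0.12. Besides Pttg1, the promoter of Cdk6, a G1 kinase, marked the low end with 4.45 in KO-labelled and 4.09 in control islets after PPx, and 4.15 in KO-labelled and 3.37 in control islets before PPx (difference -1.04, 95% interval -2.11 to 0.03). E2f3, a transcription factor of S phase entry, had the most open promoter, at -0.35 (0.47). Of the other drivers, 7 were listed only after PPx: Cdc20, Cdk2, Cdk4, E2f1, E2f2, Mcm7 and Mki67. Such peaks are common, since 5729 of all 13111 peaks listed after PPx had no partner, so this is no trait of the drivers. Cell cycle inhibitors had 11 peaks with a median of 0.02, between -0.62 and 0.67, both at antiproliferative BTG genes, Btg1 and Btg2. The 3 peaks of the progenitor list were below 0, 1 at Hes1 and 2 at Myc, where a distal peak had 3.42 in KO-labelled and 3.99 in control islets after PPx, and 3.42 in KO-labelled and 3.37 in control islets before PPx (difference -1.24, 95% interval -2.53 to 0.05).

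Lists of growth factor pathways and AP-1 factors had medians between -0.42 and 0.18. EGF and neuregulin ligands with their ERBB receptors had 9 peaks at 6 of 15 genes, between -0.48 at an intron of the ligand gene Nrg3 and 0.29 at the promoter of the ligand gene Areg, with a median of -0.06. Downstream ERBB and MAPK genes had 16 peaks, 8 above and 8 below 0, with a median of 0.00. The lowest was Spred2, an inhibitor of Ras to MAPK signalling, at -0.71 (0.51), and the highest Araf, a Raf kinase, at 0.35 (0.69). AP-1 factors had 6 peaks with a median of 0.16, which was -0.16 over the 4 left by a stricter overlap rule (at least 83.4% of the peak length). Insulin and IGF signalling had 14 peaks with a median of 0.18, from Insr, the insulin receptor, at -0.47 (0.52) to Pdpk1, the kinase that activates Akt, at 0.72 (0.57). Prolactin receptor signalling had 4 peaks with a median of -0.42, from -0.70 at the feedback inhibitor Socs2 to 0.15 at Bcl6. Of the 4, only the Bcl6 intron peak had a mean log2 level of at least 4 in both tables, so the median at that level was 0.15.

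TGF-beta and activin signalling had 11 peaks at 9 of 22 genes, with 7 below 0 and a median of -0.13. An intron of Inhba, which encodes the activin beta A subunit, had 4.49 in KO-labelled and 4.21 in control islets after PPx, and 4.36 in KO-labelled and 3.73 in control islets before PPx (difference -0.97, 95% interval -2.08 to 0.14), and the Inhba promoter stood at -0.54 (0.51). Skil, a repressor of SMAD targets, was highest at its promoter, 0.62 (0.49). The median genotype effect of the list was 0.91 after PPx and 0.34 before it, against 0.67 and 0.00 over all matched peaks.

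In the housekeeping and stress lists more peaks lay above 0 than below it. Interferon and NF-kB genes had 14 peaks at 11 of 26 genes, with 12 above 0 and a median of 0.28. The promoter of Relb, an NF-kB subunit, was highest, with 4.65 in KO-labelled and 3.94 in control islets after PPx, and 3.60 in KO-labelled and 4.34 in control islets before PPx (difference 0.83, standard error 0.54). Respiratory chain and ATP synthase genes had 12 peaks, 10 above 0, with a median of 0.28. Sdhc, a membrane anchor of complex II, was highest at its promoter, with 4.24 in KO-labelled and 2.93 in control islets after PPx, and 3.11 in KO-labelled and 3.63 in control islets before PPx (difference 1.21, 95% interval -0.11 to 2.53). Proteasome subunits had 10 peaks, all at promoters, 8 of them above 0, with a median of 0.25, from Psma6 at -0.39 (0.58) to Psmd1. Unfolded protein response genes had 12 peaks with a median of 0.06, and both ends belonged to Eif2ak3, which encodes the stress kinase PERK: -0.08 at its promoter and 0.91 at a distal peak. These lists consist mostly of promoters, which as a class stood at 0.06, with 56.9% of promoter peaks above 0 against 52.2% of all matched peaks. No list was tested.

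Chromatin and secretion genes were spread on both sides. SWI/SNF subunits had 9 peaks at 8 of 27 genes with a median of -0.10, from the Arid1a exon peak at -1.26 to an intron of its paralogue Arid1b at 0.51 (0.68), and the most open, the Ss18 promoter, stood at -0.10 (0.50). The median of this list was 0.11 under the stricter overlap rule and 0.26 from the authors' PPx tables. Other remodellers and Polycomb genes had 14 peaks with a median of 0.05, from Jarid2, a PRC2 cofactor, at -1.14 (0.76) to Chd7, a CHD remodeller, at 0.76 (0.56). Vesicle exocytosis genes had 11 peaks with a median of 0.01 (-0.34 over the 4 with a mean log2 level of at least 4), from a distal peak of the SNARE gene Snap25 at -0.76 (0.54) to the promoter of Scg5, a chaperone of prohormone convertase 2, at 0.73 (0.54).

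Markers of the cell types an islet preparation can hold were few among the matched peaks. Beta cell markers had matched peaks at 4 of 10 genes, with summed normalised reads of 123 in KO-labelled and 70.7 in control islets after PPx, and 61.5 in KO-labelled and 62.2 in control islets before PPx. Their log2 effects after and before PPx were 1.49 and 0.96 at Ins1, 1.06 and -0.25 at Nkx6-1, 0.56 and 0.03 at G6pc2, and -0.15 and -1.45 at Slc30a8. Over all matched peaks the medians were 0.67 after PPx and 0.00 before it. Alpha cell markers, at 2 of 7 genes including glucagon (Gcg), summed to 31.5 in KO-labelled and 31.2 in control islets after PPx, and to 19.1 in KO-labelled and 25.6 in control islets before PPx. Delta and PP cell markers, at 2 of 6 genes with somatostatin (Sst) the more open, summed to 53.6 in KO-labelled and 27.8 in control islets after PPx, and to 40.2 in KO-labelled and 24.3 in control islets before PPx. Endothelial markers, at 3 of 8 genes, summed to 62.8 in KO-labelled and 60.0 in control islets after PPx, and to 45.8 in KO-labelled and 52.0 in control islets before PPx. The endothelial peaks at Flt1, a VEGF receptor, and Tek, the angiopoietin receptor, had differences of -0.78 and -0.74. The promoter of Esam, the most open endothelial peak, went the other way, with a difference of 0.11. Stellate and fibroblast markers had peaks at 1 of 7 genes, and acinar, ductal, leukocyte and Schwann cell markers and the genes kept off in beta cells had no matched peak. The sums are on the 1 common scale, so those before PPx include the constant of -0.23 that joins the tables. As the tables were normalised separately, sums are compared here between genotypes within 1 state only. The part of cell composition in the differences was not tested.

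The matched peaks were the more open and more promoter-rich share of each table. In the table after PPx, the 7382 matched peaks were 71.2% promoters with a median level of 4.36 and a median effect of 0.67, and the 5729 without a partner were 48.8% promoters with a median level of 3.33 and an effect of 0.52. Of the peaks without a partner, 139 passed the authors' FDR after PPx in the authors' deposited table, and no difference can be given for them. In the table before PPx the 444 without a partner had a median level of 3.28 and an effect of -0.06. At the limit of the rule, 75 peaks within 50 bp above the smallest overlap allowed had a median difference of -0.03 (quartiles -0.40 and 0.34), and 43 pairs left out within 50 bp below it had -0.05 (quartiles -0.58 and 0.36).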

How the data were processed

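Adapters were trimmed with cutadapt, reads aligned to mm10 with BWA, peaks called with MACS, compared with DiffBind and annotated with ChIPseeker, all per the submitters' processing notes. Versions, the normalisation and the test behind the deposited p-values are not given in the sources used here. There are 4 tables from the authors, which list peaks of 601 bp. Per the file headers they hold group means as log2 concentrations (normalised reads per peak), a log2 fold, a p-value and an FDR. They also give the number of libraries that called each peak, per the file headers. Reads per library, and so depth, are unknown. Libraries were grouped by their titles, and separate animals are stated per group in the labels.

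Repeated rows, 5281 after PPx and 1197 before it, were dropped, peaks matched and effects centred as described in the report (Python 3.11.15, numpy 2.4.6, pandas 2.3.3, scipy 1.17.1). The standard error of an effect is its size over the normal quantile of the deposited p-value. Where the effect was under 0.1 or p at least 0.95, the median of peaks of like concentration (40 bins) was used, for 302 peaks after PPx and 1472 before it. The 8 peaks with a deposited p of exactly 1 were not tested. The procedure was tested on simulated data. A gene name was taken from the table after PPx; 38 pairs carry another name before PPx. Promoter sequences are from RefSeq (GRCm38.p6).

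Named are any peak past the test, the 12 highest and 12 lowest by difference over standard error (1 per gene, without predicted, RIKEN and microRNA genes), all Arid1a peaks, and in each gene list the highest, the lowest and the most open peak. Of the 12 at each end, 2 high and 1 low are not reported here. Members and lists were chosen with earlier results of these data known. Alternatives covered the centring, the trend with level and class, the overlap, a minimum level, the standard error, the threshold and the PPx tables. Those chosen after seeing the data kept the 8 untested peaks, left out chromosome Y, or left out the 92 peaks with 1 set of means.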

Additional observations from a re-analysis of the deposited data

How the results depend on the processing

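No peak passed under most settings. With the standard error of peaks of like concentration in place of each peak's own, 1 peak was lower after PPx, the distal Gm23255 peak (adjusted p of 0.0416, z test built on the authors' p-values with Benjamini-Hochberg adjustment). Keeping the peaks with a deposited p of 1 also called 1, Pgk1 (adjusted p of 4.46e-05, z test with Benjamini-Hochberg adjustment). The standard errors of Pgk1 in this test were borrowed from peaks of like concentration, since none follows from its own deposited p after PPx. Without centring the median difference was 0.64, and at an unadjusted p under 0.05 there were 1063 higher and 7 lower peaks, against 56 and 62 with it, but none passed (lowest adjusted p of 0.0919). With t quantiles for the standard error 120 were higher and 72 lower at that level, and the lowest adjusted p was 0.105, at Arid1a. The gap of promoters over other peaks was 0.03 with the trend by level and class removed, which takes it out by construction, and 0.11 at a mean log2 concentration of at least 4, where the SD of the difference was 0.37. The median difference, 0.02, was -0.03 centred on the matched peaks, -0.01 with the trend removed and -0.02 from the PPx tables, all small beside the SD of 0.48. No value of a peak named at the ends, or of Arid1a, changed sign under the settings that gave one. With the PPx tables in place of the genotype tables no peak passed either. Those tables hold the same contrast from the same libraries, so this is no independent check. The list medians moved past their error in 30 cases, 21 of them without centring. They changed sign in 22 cases: 8 without centring, 5 from the PPx tables (SWI/SNF subunits at 0.26, alpha cell markers at 0.34, stellate cell and fibroblast markers at 0.07, cell cycle inhibitors and vesicle exocytosis at -0.02), 3 centred on the matched peaks, 3 under the stricter overlap rule, 2 at a mean log2 concentration of at least 4 and 1 with the trend removed.

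No paired analysis was possible because the numbers in the titles are unique to each library and the tables hold group means. Leaving out single libraries was not run for the same reason, so a difference that 1 animal decides cannot be seen.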

Other observations

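The peaks described at the 2 ends of the ranking also differ in which group stands alone, a description of the authors' means with no test. At the high end the lowest of the 4 groups was the control islets after PPx at Pttg1 (2.20) and Cdc37l1 (2.13), and the KO-labelled islets before PPx at Psmd1 (2.93), Olfm4 (2.07) and Morn2 (3.16). At the low end Ndufb3 and Pkhd1 were lowest in KO-labelled islets after PPx (2.80 and 3.63), and Fez2 and Bub3 in control islets before PPx (2.05 and 3.40). Each of these groups is the lowest with or without the constant that joins the tables.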
